A study of Homo sapiens with 6 samples.

Results

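The genes examined here make ribosomes. They comprise MYC and 38 genes whose products act in ribosome production, many of them in the nucleolus. These 38 range from the RNA polymerase I machinery to the proteins that assemble the small and large ribosomal subunits. The 39 genes were taken from a list and found by symbol among probe sets that name 1 gene, and 35 of them were measured. NOP56, DKC1 and BOP1 were covered by probe sets that also name small RNA genes, GNL3 was not named by any probe set used here, and these 4 were not analysed. Total RNA came from MCF10A, an immortal breast epithelial line of human origin that does not form tumours, in 2 groups of 3 samples. The first carried a short hairpin RNA against FRY (shFRY) and the second a non-targeting short hairpin RNA (control). The FRY protein is found on microtubules and works with kinases of the NDR family. All cells were stably transfected, selected with puromycin and grown in mammary epithelial medium with epidermal growth factor, insulin, hydrocortisone and pituitary extract. All 3 samples of a group came from 1 clone, the shFRY clone having been picked for its low FRY level. The p-values therefore measure only the spread between samples of the same clone, which may be technical, and a difference between constructs cannot be told apart from a difference between clones.

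Ribosome production begins in the nucleolus, where RNA polymerase I transcribes a long precursor RNA. Small nucleolar ribonucleoproteins modify this precursor, a series of assembly factors fold and cut it, and the 2 subunits then leave the nucleus separately. MYC is the transcription factor best known for raising the output of this pathway in growing cells, and MCF10A cells are known to carry extra copies of its gene.

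Signal was read on 1-colour arrays with 54675 probe sets, 1 array per sample, as log2 values whose medians lay between 3.02 and 3.06. Over the probe sets, Pearson's r was 0.992 to 0.995 within a group and 0.972 to 0.978 between a shFRY and a control sample. Precision is limited by the 6 arrays. The 4 FRY probe sets had log2 differences, shFRY minus control, of -0.32 to -0.75, and only the one at -0.75 was called (limma adjusted p = 0.0223 over probe sets). Its log2 signal was dim, 2.88 to 3.31 in the shFRY samples and 3.55 to 4.23 in the control samples, near the sample medians. That call was lost with the beta-actin covariate described further on (-0.38, adjusted p = 0.676) and without shFRY sample 1 or 3 or control sample 1 or 3 (0.0502 to 0.0712). The means of 8 mammary epithelial markers lay between 10.92 and 10.99 in the shFRY samples and between 10.37 and 10.43 in the control samples, but the 8 went both ways, with 4 called higher, led by KRT14 (2.92) and LAMB3 (1.71), and KRT8 (-0.93) and KRT18 (-0.37) called lower. The means of 8 fibroblast markers lay between 2.79 and 2.91 in the shFRY samples and between 3.72 and 4.02 in the control samples. COL3A1 (-1.82), LUM (-3.94) and DCN (-2.79) were called lower and 0 of the 8 higher. The other 5 were not called, with differences between -0.28 and 0.24, 3 of them positive. The part of either marker group in the results was not tested. In such bulk samples a lower share of expressing cells and less RNA per cell cannot be told apart.

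The ribosome biogenesis genes did not move as 1 block between the shFRY and control cells. Of the 35 measured genes, 9 were called higher and 6 lower in shFRY, a call being a Benjamini-Hochberg adjusted p under 0.05 in limma over all 19775 genes. The share called was 42.9%, against 29.8% of all genes. Higher calls made up 25.7% of the list against 13.7% of all genes, and lower calls 17.1% against 16%. All 35 genes had a mean signal above the median gene. Among the 9887 genes above that median, 48.3% were called, 21.3% higher and 27% lower, so the share called in the list was below that among these genes. The counts by role given below rest on few genes each and stand against these same shares. Leaving out shFRY sample 2 or control sample 3 left 3 genes of the list called lower in either case. The median log2 difference, shFRY minus control, was 0.06 over the list, 0.03 over all genes and -0.06 over the genes above the median signal. The median size of the difference without its sign was 0.30 over the list and 0.36 over the genes above the median signal. The shFRY and control samples did not overlap for 24 of the 35 genes (68.6%), against 44.2% of all genes and 65% of the genes above the median signal. Out of the 35 genes, 14 were higher in shFRY without overlap and 10 lower without overlap. Among all genes the shares higher and lower without overlap were 21.9% and 22.4%. For the genes above the median signal only the share in either direction, 65%, was counted. DDX10, MYC and WDR43 were the 3 genes of the list that differed by 2-fold or more, all of them higher in shFRY, while 3.42% of all genes were called at least 2-fold higher and 4.08% at least 2-fold lower.

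**Figure D1:**
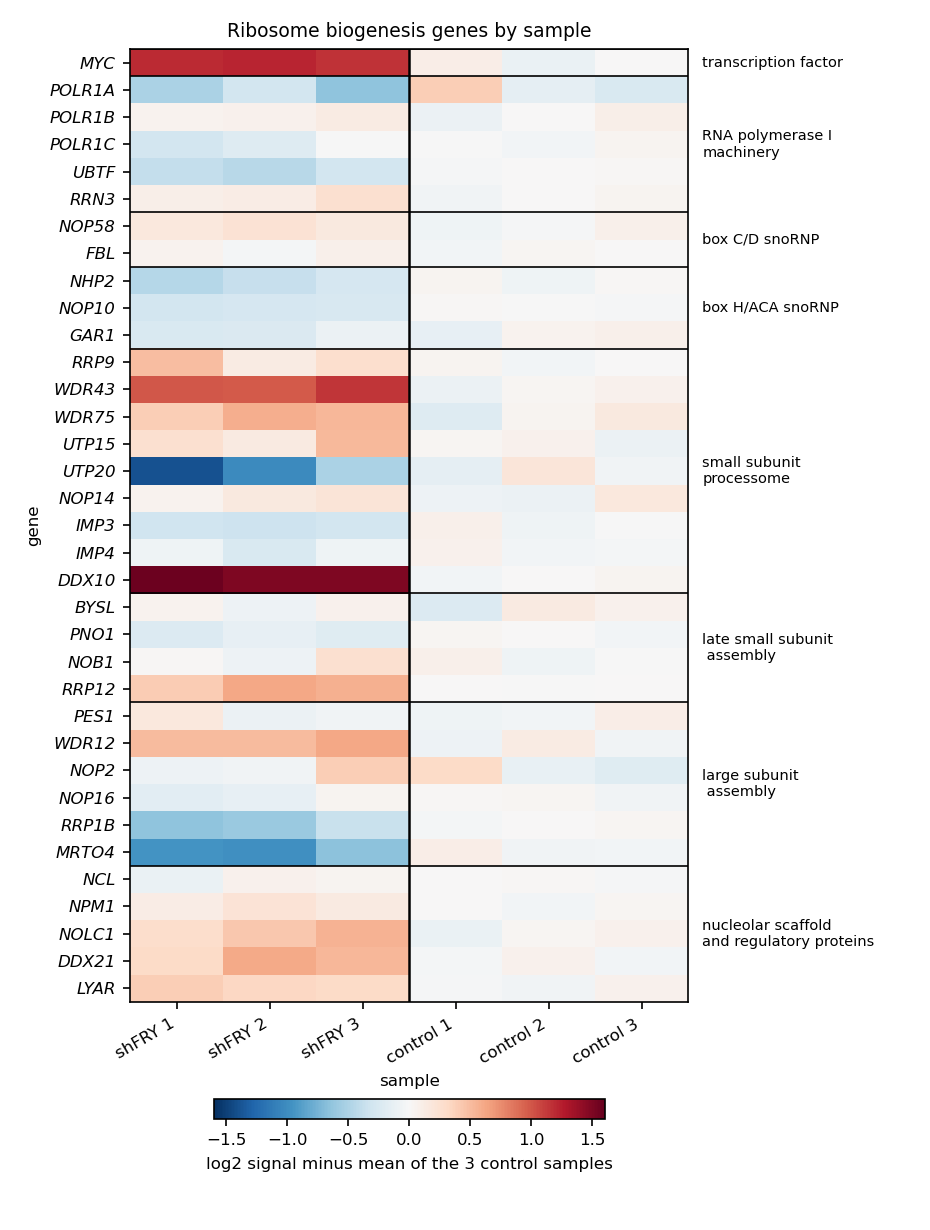
Log2 signal of the 35 measured genes (rows, grouped by role) in each of the 3 shFRY and 3 control samples (columns), shown as the difference from the mean of the 3 control samples. Red is above and blue below that mean. DDX10, MYC and WDR43 are the reddest rows in all 3 shFRY samples, and UTP20 and MRTO4 are the bluest in shFRY samples 1 and 2. Rows of both colours stand side by side in the RNA polymerase I, small subunit processome, late small subunit and large subunit groups.

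A measure of RNA length differed between the groups without overlap. The 3' minus 5' difference of the beta-actin control probe sets was 2.88, 2.89 and 2.84 in shFRY samples 1 to 3, against 2.33, 2.52 and 2.71 in control samples 1 to 3. All shFRY values lay above all control values (difference 0.35, two-sided exact permutation p = 0.1, which is the lowest value this design allows). The same difference for GAPDH averaged -0.07 ± 0.03 in the shFRY samples and -0.09 ± 0.01 in the control samples (SD, n = 3 each, exact permutation p = 0.4). When each sample's beta-actin difference entered the fit as a covariate, 3 of the 15 called genes were still called in limma: DDX10 (1.44, adjusted p = 0.00954), MYC (1.28, adjusted p = 0.0185) and WDR43 (0.92, adjusted p = 0.0497). The median SE over the list was 0.20 with the covariate and 0.10 without it, and the part of RNA length in the other 12 calls was not tested. Of these 12, some had differences about as large with the covariate, namely UTP20 (-0.95), RRP1B (-0.55), RRP12 (0.54), WDR12 (0.54), DDX21 (0.50) and UBTF (-0.40), and others smaller ones, namely MRTO4 (-0.68), NHP2 (-0.32), NOLC1 (0.29), LYAR (0.25), IMP3 (-0.23) and WDR75 (0.16).

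**Figure D2:**
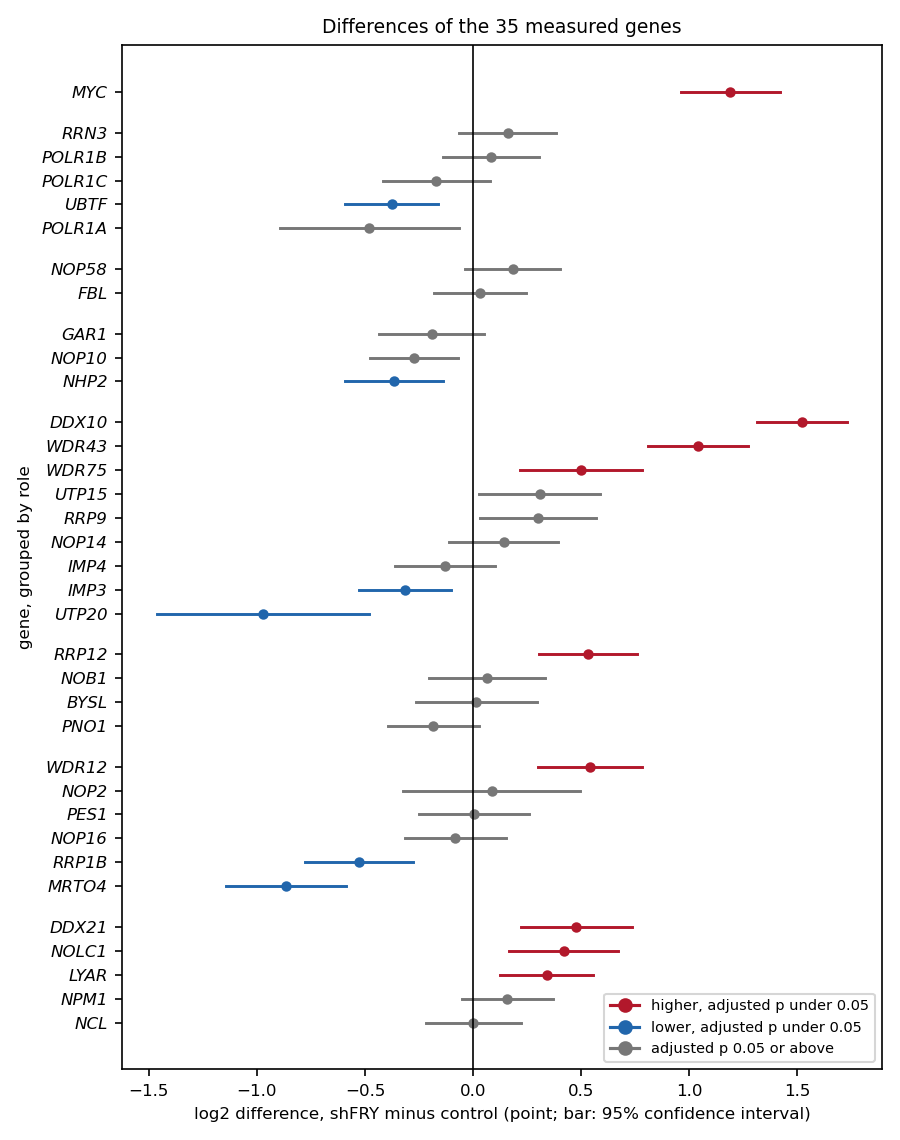
Log2 difference, shFRY minus control, of each measured gene (point) with its 95% confidence interval (bar), grouped by role and ordered within each role. Red and blue mark the 9 genes called higher and the 6 called lower, and the genes in grey have an adjusted p of 0.05 or above. DDX10, MYC and WDR43 lie farthest to the right, UTP20 and MRTO4 farthest to the left.

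Promoters were compared because MYC binds the E-box CACGTG, a letter sequence that reads the same on both strands. RefSeq windows of 250 bases before to 50 after the gene start (GRCh38.p14) were found for 30 of the 35 genes, 8 of which have more than 1 window. An E-box was present in 15 of the 30 (50%), against 10.9% of the 15384 tested genes with a window. In 13 of the 15 its first base lay within 35 bases of a start. The other motifs searched on both strands were CCGGAAG (reverse CTTCCGG), bound by ETS factors, in 9 of the 30 (30%, against 16.6% of tested genes), and the NRF1 motif, in 2 of the 30 (6.67%, against 2.04%). E-box genes were found on both sides of the comparison. Of the 15 genes with an E-box, 3 were called higher and 2 lower, with a median log2 difference of 0.01. Of the 15 with a window and no E-box, 3 were called higher and 3 lower, with a median of 0.06. A match of letters is a description and not evidence of binding. The stretches from 100 bases before to 30 bases after the start are printed for the 5 called genes with an E-box, since the same letters stand near the start of genes that differed in opposite directions, and for DDX10, which had the largest difference and no E-box. Capitals mark the E-box, and the DDX10 stretch is in lower case throughout.
WDR43 (chr2:28894567-28894696, plus strand): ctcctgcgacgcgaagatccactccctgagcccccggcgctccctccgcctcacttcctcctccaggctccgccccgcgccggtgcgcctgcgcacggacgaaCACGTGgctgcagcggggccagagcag
DDX21 (chr10:68956547-68956676, plus strand): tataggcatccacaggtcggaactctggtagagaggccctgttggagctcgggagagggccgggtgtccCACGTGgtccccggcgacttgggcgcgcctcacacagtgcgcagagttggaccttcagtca
LYAR (chr4:4289992-4290121, minus strand): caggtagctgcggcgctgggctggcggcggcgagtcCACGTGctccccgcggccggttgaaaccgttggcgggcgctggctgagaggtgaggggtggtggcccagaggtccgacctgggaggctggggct
UTP20 (chr12:101280005-101280134, plus strand): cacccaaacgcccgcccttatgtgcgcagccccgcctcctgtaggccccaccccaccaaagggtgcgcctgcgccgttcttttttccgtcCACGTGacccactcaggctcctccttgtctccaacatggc
MRTO4 (chr1:19251705-19251834, plus strand): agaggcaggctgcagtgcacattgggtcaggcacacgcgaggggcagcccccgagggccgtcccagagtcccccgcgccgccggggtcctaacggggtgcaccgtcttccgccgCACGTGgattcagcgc
DDX10 (chr11:108664969-108665098, plus strand): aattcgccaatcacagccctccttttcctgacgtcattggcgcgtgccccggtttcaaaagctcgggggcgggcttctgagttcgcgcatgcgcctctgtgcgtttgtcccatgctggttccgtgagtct
WDR43, DDX21, LYAR and DDX10 were called higher in shFRY, and UTP20 and MRTO4 lower. Counting the first base of the gene as 1 and the base before it as -1, the E-box began at 4 in WDR43, 15 in MRTO4, -10 in UTP20, -31 in DDX21 and -64 in LYAR. The DDX21 and LYAR stretches belong to 1 of the 2 windows listed for each.

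MYC was higher in shFRY cells. Its log2 signal was 11.24, 11.26 and 11.21 in shFRY samples 1 to 3, against 10.16, 9.93 and 10.05 in control samples 1 to 3. The shFRY samples differed from each other by less than the control samples did, and the groups did not overlap. The log2 difference was 1.19 (SE 0.10, limma adjusted p = 9.21e-05), a 2.28-fold higher signal. MYC had 1 probe set that names it alone, and its call was kept under each of the 14 alternatives that measure it, with differences between 1.13 and 1.28.

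**Figure D3:**
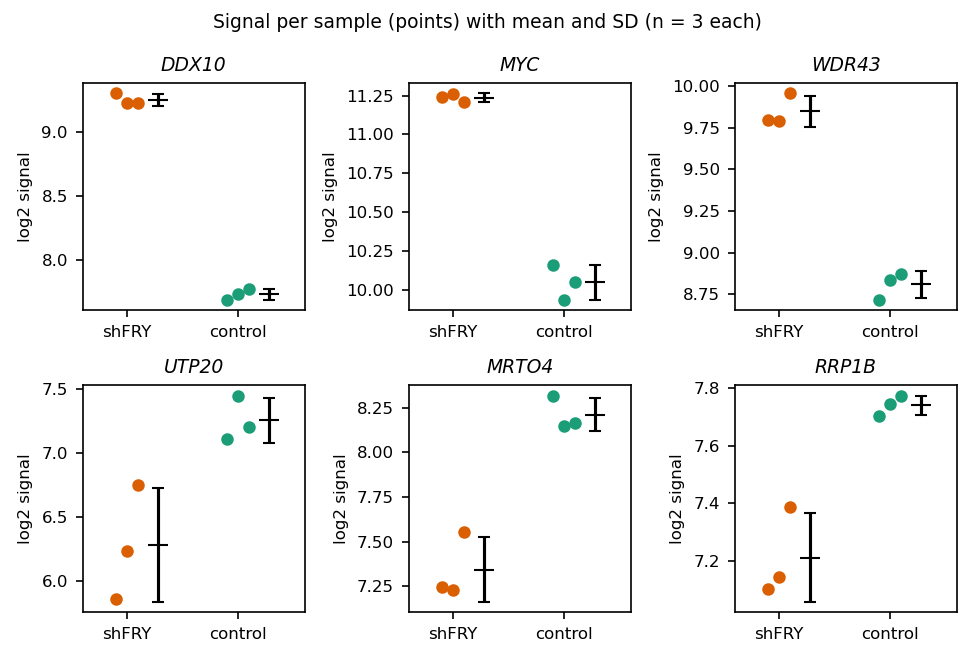
Log2 signal in each shFRY sample (orange) and each control sample (green) of the 3 genes with the largest rises and the 3 with the largest falls, with the mean and SD of each group (n = 3) as a black bar beside the points. The groups do not overlap in any panel; vertical axes differ between panels and do not start at 0.

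RNA polymerase I genes showed 1 call among 5, and it was a fall. UBTF encodes the upstream binding factor that marks ribosomal DNA for transcription. Its log2 signal was 7.58, 7.52 and 7.67 in shFRY samples 1 to 3, against 7.94, 7.96 and 7.99 in control samples 1 to 3. Every shFRY sample lay below every control sample, with a difference of -0.38 (SE 0.09, limma adjusted p = 0.0171). Another of the 5 UBTF probe sets was called lower as well (-0.83, limma adjusted p = 0.00190 over probe sets), while the other 3 were not called and had differences of -0.24, -0.10 and 0.27. The UBTF call was lost without shFRY sample 2 (limma adjusted p = 0.0595), control sample 2 (0.0542) or control sample 3 (0.0607), and when the 5 probe sets were averaged (-0.25, adjusted p = 0.0540). POLR1A, the largest subunit of the polymerase, had the lowest value of the group at -0.48 but a wide 95% confidence interval of -0.89 to -0.07 and was not called (limma adjusted p = 0.0812). Its other 2 probe sets stood at 0.38 and 0.02. The second largest subunit gene POLR1B (0.08), the subunit gene POLR1C, shared with RNA polymerase III (-0.17), and RRN3, which encodes the factor that brings the polymerase to its promoter (0.16), were not called.

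Of the genes of core small nucleolar ribonucleoprotein components, 1 of 5 was called, NHP2, which fell. NOP58 and FBL belong to the box C/D class, which guides methylation of ribosomal RNA, FBL being the methyltransferase. NOP58 log2 signal was 9.07, 9.13 and 9.05 in shFRY samples 1 to 3, against 8.83, 8.88 and 8.99 in control samples 1 to 3. Although these groups did not overlap, the difference of 0.18 (SE 0.09, limma adjusted p = 0.194) was not called. The FBL difference was 0.03, with a 95% confidence interval of -0.18 to 0.24. In the box H/ACA class, which guides pseudouridine formation, NHP2, NOP10 and GAR1 were measured and all 3 differences were negative. NHP2 was called, with log2 signals of 10.03, 10.11 and 10.22 in shFRY samples 1 to 3, against 10.53, 10.42 and 10.51 in control samples 1 to 3. The highest shFRY value lay below the lowest control value, and the difference was -0.37 (SE 0.10, limma adjusted p = 0.0244). NOP10 lay just outside the threshold at -0.27 (limma adjusted p = 0.0501), also without overlap, and was called lower under 5 of the 15 alternatives (adjusted p = 0.00872 to 0.0465). GAR1 was at -0.19 (95% confidence interval -0.43 to 0.05) with overlap. The NHP2 call was lost without shFRY sample 1 or 2 (limma adjusted p = 0.0697 and 0.0647) and without control sample 1 or 3 (0.0766 and 0.0781).

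The small subunit processome, the large particle in which the 18S part of the precursor is folded and cut, held both the largest rise and the largest fall of the list. Of its 9 genes 3 were called higher and 2 lower. DDX10, an RNA helicase whose yeast counterpart Dbp4 frees a small nucleolar RNA from the precursor, had log2 signals of 9.31, 9.23 and 9.23 in shFRY samples 1 to 3, against 7.69, 7.73 and 7.77 in control samples 1 to 3. The values within each group were close together and far from the other group. The difference of 1.52 (SE 0.09, limma adjusted p = 1.89e-05) was a 2.87-fold rise. A second DDX10 probe set with a mean log2 signal of 2.08, below the sample medians, stood at 0.06, and the mean of both probe sets gave 0.79 (limma adjusted p = 0.000162). WDR43, a member of the subcomplex that binds the precursor first, had log2 signals of 9.80, 9.79 and 9.96 in shFRY samples 1 to 3, against 8.72, 8.84 and 8.87 in control samples 1 to 3. All shFRY values lay above all control values, with a difference of 1.04 (SE 0.10, limma adjusted p = 0.000192) or 2.06-fold. Its partner in that subcomplex, WDR75, had log2 signals of 8.47, 8.66 and 8.60 in shFRY samples 1 to 3, against 7.87, 8.12 and 8.24 in control samples 1 to 3. The control samples spread more widely than the shFRY samples, still without overlap. WDR75 was higher by 0.50 (SE 0.12, limma adjusted p = 0.0167), a call that was lost without shFRY sample 2 (limma adjusted p = 0.0545) or control sample 1 (0.0527). A further gene of the subcomplex, UTP15, was at 0.31 and not called (limma adjusted p = 0.0945), though it was called higher under 2 of the 15 alternatives. Genes of the subcomplex outside the list did not rise with these. NOL11 was called lower (-0.47, limma adjusted p = 0.0118), and HEATR1 (-0.24) and UTP4 (-0.02) were not called.

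UTP20, which encodes a very large scaffold protein of the same particle, moved the other way. Its log2 signal was 5.86, 6.24 and 6.75 in shFRY samples 1 to 3, against 7.11, 7.45 and 7.20 in control samples 1 to 3. The shFRY samples spread more than those of any other gene of the list (SD 0.45), and the highest of them was still below the lowest control sample. The difference was -0.97 (SE 0.21, limma adjusted p = 0.00987), a 1.96-fold lower signal. IMP3, which with MPP10 and IMP4 holds the U3 small nucleolar RNA on the precursor, had log2 signals of 8.79, 8.79 and 8.82 in shFRY samples 1 to 3, against 9.20, 9.05 and 9.11 in control samples 1 to 3. The shFRY values were close together and all below the control values. The IMP3 difference was -0.31 (SE 0.09, limma adjusted p = 0.0354), and the call was lost without any 1 of the 6 samples (limma adjusted p between 0.0565 and 0.106) and after centring on the sample medians (0.0517). Its partner IMP4 was at -0.13 (95% confidence interval -0.36 to 0.10). RRP9, specific to the U3 particle, was at 0.30 (limma adjusted p = 0.0920), and NOP14 at 0.14, and neither was called. RRP9 was called higher when only genes above the median signal were tested (limma adjusted p = 0.0453).

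Among 4 genes of late small subunit assembly, RRP12 alone was called. RRP12 takes part in the export of pre-ribosomal particles and had log2 signals of 6.28, 6.49 and 6.44 in shFRY samples 1 to 3, against 5.88, 5.86 and 5.87 in control samples 1 to 3. The control samples were nearly identical and all lay below the shFRY samples, with a difference of 0.53 (SE 0.10, limma adjusted p = 0.00449). The gene has 4 other probe sets with mean log2 signals of 2.11 to 3.71, none of them called, and once _s_at and _x_at probe sets were dropped, another one stood for RRP12 at 0.20 (limma adjusted p = 0.504). Averaged over the 5 probe sets RRP12 was at 0.26 and not called either (limma adjusted p = 0.0700). The nuclease gene NOB1, whose product makes the final cut of 18S RNA, was at 0.06 with a 95% confidence interval of -0.20 to 0.33. Its partner PNO1 was at -0.18 and the assembly factor gene BYSL at 0.01.

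Genes of large subunit assembly were split as well, with 1 called higher and 2 lower among 6. WDR12 and PES1 form a complex with BOP1 that is needed to cut the precursor of the large subunit RNA. WDR12 log2 signal was 9.74, 9.74 and 9.86 in shFRY samples 1 to 3, against 9.16, 9.37 and 9.18 in control samples 1 to 3. The groups did not overlap, and the difference was 0.54 (SE 0.10, limma adjusted p = 0.00533). The other 2 WDR12 probe sets were dimmer and stood at -0.41 and -0.10, so that the mean over its 3 probe sets gave 0.01 (limma adjusted p = 0.952). PES1 was at 0.01 (95% confidence interval -0.25 to 0.26). MRTO4, which occupies the site of the stalk protein on the immature subunit, had log2 signals of 7.25, 7.23 and 7.55 in shFRY samples 1 to 3, against 8.32, 8.15 and 8.16 in control samples 1 to 3. Both groups were far apart, with shFRY sample 3 the nearest to the control samples. The MRTO4 difference was -0.87 (SE 0.12, limma adjusted p = 0.00111), a 1.82-fold lower signal, and its second probe set gave -0.86 (limma adjusted p = 0.0112 over probe sets). RRP1B, a nucleolar protein of the large subunit precursors, had log2 signals of 7.10, 7.14 and 7.39 in shFRY samples 1 to 3, against 7.70, 7.75 and 7.77 in control samples 1 to 3. Again shFRY sample 3 was the nearest to the control samples, and the groups did not overlap. The RRP1B difference was -0.53 (SE 0.11, limma adjusted p = 0.00740), and its second probe set stood at -0.42 (limma adjusted p = 0.0267 over probe sets). NOP2, a methyltransferase of the large subunit RNA, was at 0.09 with a 95% confidence interval of -0.32 to 0.49. NOP16 was at -0.08 and was not called at 2 of its 4 probe sets, but the other 2 were called lower (-0.44 and -0.42, limma adjusted p = 0.0239 and 0.0172 over probe sets). Averaged over its 4 probe sets NOP16 was called lower (-0.26, limma adjusted p = 0.0419).

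Among nucleolar scaffold and regulatory proteins 3 of 5 genes were called higher and 0 lower. Higher calls made up 13.7% of all genes and 21.3% of those above the median signal, lower calls 16% and 27%. DDX21, an RNA helicase that links RNA polymerase I transcription to processing, had log2 signals of 9.99, 10.29 and 10.21 in shFRY samples 1 to 3, against 9.66, 9.76 and 9.64 in control samples 1 to 3. The lowest shFRY value lay above the highest control value. The DDX21 difference of 0.48 (SE 0.11, limma adjusted p = 0.0128) was matched by the second probe set (0.57, limma adjusted p = 0.00622 over probe sets). NOLC1, a chaperone of small nucleolar ribonucleoproteins, had log2 signals of 10.54, 10.69 and 10.81 in shFRY samples 1 to 3, against 10.16, 10.30 and 10.33 in control samples 1 to 3. These groups did not overlap either, and the difference was 0.42 (SE 0.11, limma adjusted p = 0.0220). Of its 3 probe sets 2 were called higher. LYAR, a nucleolar zinc finger protein, was higher by 0.34 (SE 0.09, limma adjusted p = 0.0260), with group means of 10.36 ± 0.05 in the shFRY samples and 10.01 ± 0.06 in the control samples (SD, n = 3 each). The NOLC1 call was lost without shFRY sample 2 or 3 (limma adjusted p = 0.0583 and 0.0564) or control sample 1 or 2 (0.0775 and 0.0559), and the LYAR call without any 1 sample other than shFRY sample 3 (0.0505 to 0.0902).

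The genes of 2 abundant nucleolar proteins, NPM1 and NCL, were not called. NPM1, the histone chaperone nucleophosmin, averaged 12.59 ± 0.05 in the shFRY samples and 12.43 ± 0.04 in the control samples (SD, n = 3 each), a difference of 0.16 with a 95% confidence interval of -0.05 to 0.37. With robust eBayes and a trend NPM1 was called higher (limma adjusted p = 0.0138). NPM1 has near-identical pseudogene copies, which its probe sets may also bind. NCL, nucleolin, averaged 11.32 ± 0.09 in the shFRY samples and 11.32 ± 0.02 in the control samples (SD, n = 3 each), and the interval of its difference was -0.22 to 0.22. A second NCL probe set had a mean log2 signal of 3.12, near the sample medians, and was called lower (-0.94, limma adjusted p = 0.0102 over probe sets).

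**Figure D4:**
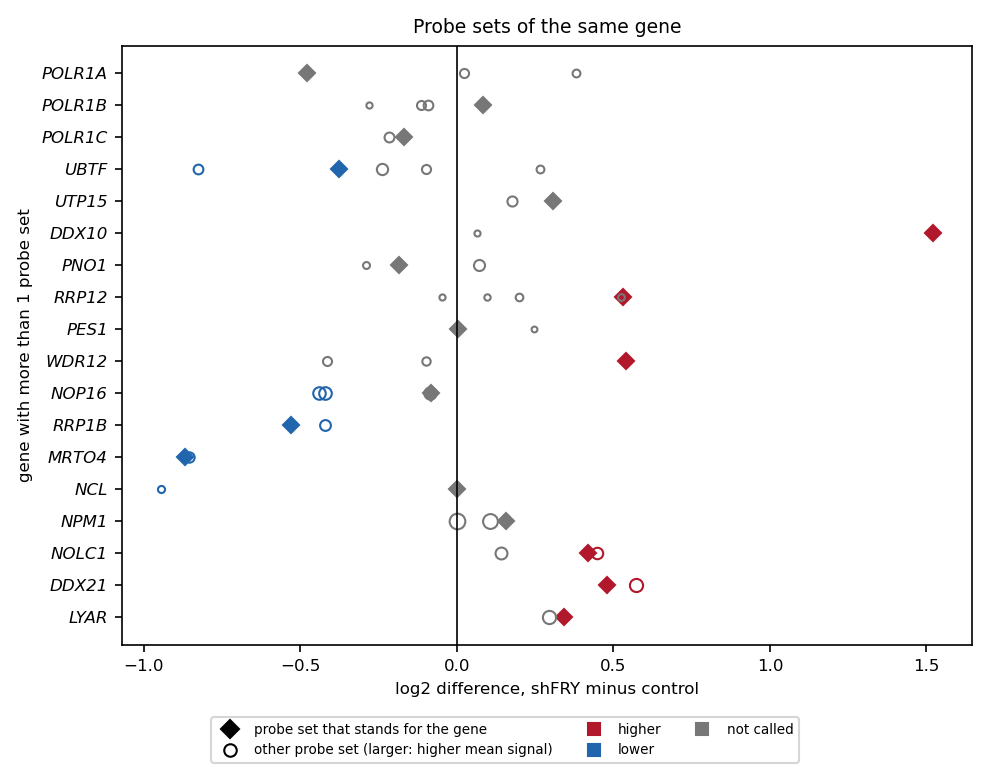
Log2 difference, shFRY minus control, of each probe set of the 18 genes with more than 1 probe set. Filled diamonds stand for the gene, open circles are its other probe sets, larger where the mean signal is higher, and red, blue and grey mark called higher, called lower and not called in limma over all probe sets other than controls. DDX21, NOLC1, MRTO4, RRP1B and UBTF have a second called probe set on the same side, while the open circles of WDR12 lie on the other side of 0.

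Probe sets of the same gene mostly shared their sign, but most further probe sets of called genes were not called. The 35 genes had 68 probe sets, and 33 of these were second or further probe sets of 18 genes. Of the 33, 21 had the sign of the probe set that stood for the gene. Among the 17 that belonged to called genes, 5 were called in the same direction, 0 in the opposite direction and 12 were not called. Among the 16 that belonged to genes not called, 3 were called lower, 2 of NOP16 and 1 of NCL.

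Other genes of ribosome production, from lists that do not overlap the one above, were called in both directions too. Over 5 lists with 135 further genes, 128 were measured, of which 26 were called higher and 23 lower, with a median log2 difference of 0.01. These are 20.3% and 17.97% of the measured genes, against 13.7% and 16% of all genes. All 128 have a mean signal above the median gene, and among the genes above that median 21.3% were called higher and 27% lower. The lower count was 12 without shFRY sample 1, 14 without shFRY sample 2, 13 without control sample 1, 11 without control sample 2 and 13 without control sample 3, and the higher count was 17 without control sample 1. With the beta-actin covariate 1 was called higher and 0 lower. Among 12 RNA polymerase I and factor genes 3 were higher and 2 lower: the subunit gene POLR1G (-1.25) and the termination factor gene TTF1 (-1.11) fell, whereas TAF1A of the promoter selectivity factor (1.17) and the subunit gene POLR1H (0.68) rose. Among 43 small subunit genes 5 were higher and 10 lower, with a median of -0.06, including the kinase gene RIOK1 (0.86) and PDCD11 (0.70), which rose, and NOP9 (-0.71) and the helicase gene DHX37 (-0.62), which fell. Among 49 large subunit genes 14 were higher and 9 lower, with a median of 0.13, led by EFL1, the GTPase that frees the finished subunit of EIF6 (1.24), URB1 (0.95), WDR74 (0.71) and the ATPase gene MDN1 (0.65), which all rose. The RNA exosome, which trims the precursors, had 3 of 14 genes higher and 0 lower, namely EXOSC7 (0.44), the helicase gene MTREX (0.44) and EXOSC1 (0.36). Of 10 small nucleolar ribonucleoprotein assembly factors RUVBL1 rose (0.41), and RPAP3 (-0.62) and SHQ1 (-0.59) fell. Host genes of small nucleolar RNAs were measured for 5 of 14, with only probe sets that name 1 gene in use. Each of the 5 was called, against 29.8% of all genes and 48.3% of those above the median signal. SNHG32 (1.95) and ZFAS1 (1.26) rose, and DANCR (-1.08), EPB41L4A-AS1 (-0.61) and GAS5 (-0.51) fell.

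**Figure D5:**
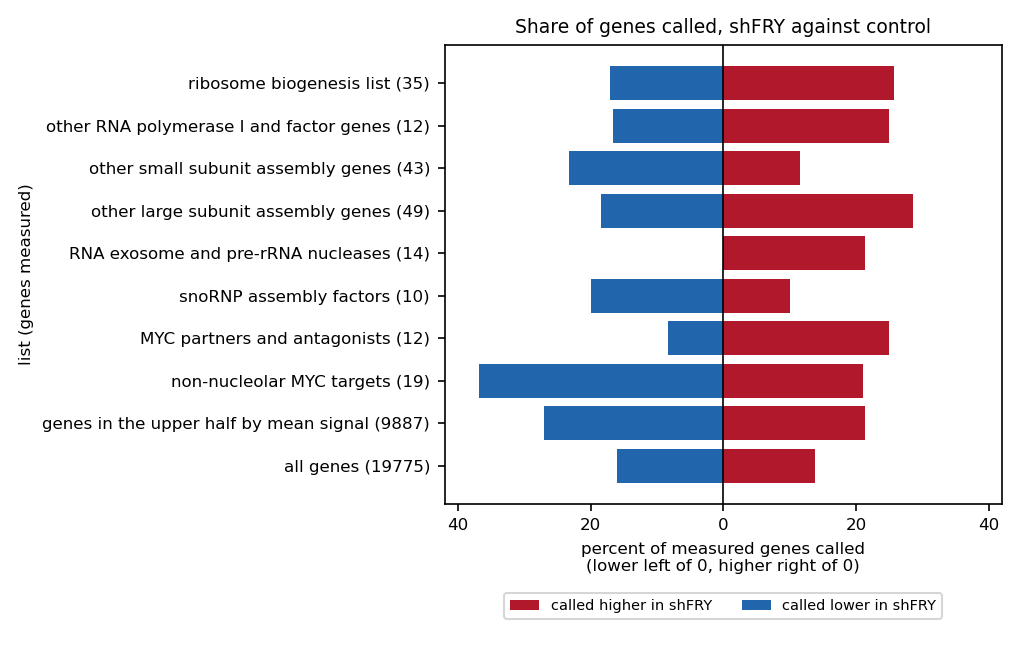
Percent of the measured genes of each list called lower (blue, left of 0) and higher (red, right of 0) in shFRY, with the number of genes measured in brackets. The 35 ribosome biogenesis genes have a larger red bar and about the same blue bar as all genes, and a smaller blue bar than the genes above the median signal.

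Genes around MYC were also examined. Over all genes 13.7% were called higher and 16% lower, and over those above the median signal 21.3% and 27%. Of 12 partners and antagonists 3 were higher and 1 lower. MXD1, which pairs with MAX in place of MYC and represses, rose by 2.71 on the log2 scale to a mean of 11.40 in the shFRY samples, against 8.70 in the control samples. MNT, another such repressor (0.38), and ZBTB17, which binds MYC (0.43), rose too, and MYCL fell (-1.05). Of 19 MYC targets outside the nucleolus 4 were higher and 7 lower, 21.1% and 36.8%, with a median of -0.16. The 4 that rose were MTHFD2, of mitochondrial one-carbon metabolism (0.87), ODC1 (0.80), IARS1 (0.54) and SHMT2 (0.45). Of the 7 that fell, RCC1 (-0.99), prohibitin gene PHB1 (-0.91) and the mitochondrial chaperonin gene HSPE1 (-0.82) fell most. Free ribosomal proteins RPL5 and RPL11 are known to bind MDM2 when ribosome assembly stalls. Of 4 measured genes listed around MDM2, 3 were called higher, against 13.7% of all genes and 21.3% of those above the median signal. These were CDKN1A (0.78), MDM2 (0.46) and CDKN2A (0.49), while RPL11 itself was not called (-0.15, limma adjusted p = 0.341). CDKN2A had mean log2 signals of 2.60 in the shFRY samples and 2.11 in the control samples, both below the sample medians. Whether ribosome assembly stalled in these cells was not tested.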

How the data were processed

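Total RNA of 3 shFRY and 3 control samples was amplified, labelled with biotin and hybridised, 1 array per sample. The authors deposited log2 values, and the submitters' processing notes name RMA, its version not given in the sources used here. This step equalises the arrays, so a change shared by all genes cannot be seen, and it is known to compress differences of dim probe sets. Groups and replicate numbers come from the sample titles. Of 54675 probe sets, 62 were controls, 41091 named 1 gene, 1801 several and 11721 none. Symbols were updated through Entrez IDs to RefSeq (GRCh38.p14), which held 41037 of the 41091. Each of 19775 genes was represented by its probe set with the highest mean. Each gene's difference (shFRY minus control) was tested by limma, version 3.58.1, under R 4.3.3 (lmFit and eBayes with 4 residual degrees of freedom and no filter), with Benjamini-Hochberg adjustment across the 19775 genes. Single probe sets were tested over all except controls.

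The genes and lists were chosen with earlier results of these data known. Given sample by sample are the 12 called genes with the largest differences, every gene called lower, and the gene with the smallest p of any role without one of these; of each other list, up to 4 called genes are named. NOL11, HEATR1, UTP4, ODC1, IARS1, SHMT2, RPL11, the fifth called snoRNA host gene GAS5, and single probe sets were named after their values were seen. On simulated data with 200 of 19775 genes changed, the fit found 25.4% of those changed 1.5-fold, 73.1% of those changed 2-fold and 100% of those changed 4-fold, with 8 false calls. Far more genes were called in the real comparison, where the adjusted threshold is therefore less strict. Alternatives were median centring, quantile normalization again, robust eBayes with a trend, only genes above the median signal, averaging all probe sets of a gene, no _s_at or _x_at probe sets, array weights, a replicate block, the beta-actin covariate and leaving out each sample.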

Additional observations from a re-analysis of the deposited data

How the results depend on the processing

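The 9 genes called higher and 6 called lower varied with the setting: 6 to 11 were called higher and 3 to 8 lower in every alternative except the beta-actin covariate, which left 3 and 0. Without 1 sample, 3 to 5 were called lower and 6 to 8 higher. Under the covariate 545 of all genes were called higher and 481 lower, in place of 2718 and 3171, and 1 and 0 of the 128 other ribosome production genes, in place of 26 and 23; these numbered 17 to 23 higher and 11 to 25 lower without 1 sample, and 12 were higher without _s_at and _x_at probe sets, where fewer genes are measured. The covariate differs between the groups without overlap, and its fit has 1 residual degree of freedom less. The cause of the lower counts was not tested further. The list's median difference stayed between 0.005 and 0.092. Same-numbered samples did not deviate together (correlations of -0.0002, -0.002 and 0.007 over genes); of the 6 samples only shFRY sample 3 and control sample 3 correlated best with their own number. With the replicate block 8 genes were called higher and 4 lower, NHP2, IMP3 and LYAR losing their calls (limma adjusted p = 0.0535, 0.0753 and 0.0620), and the called FRY probe set as well (0.0522); it moved the counts over all genes to 2415 higher and 2915 lower, and over the other ribosome production genes to 22 and 17.

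Differences that changed sign belonged to genes not called. With the beta-actin covariate these were POLR1A (0.0624), POLR1B (-0.0717), FBL (-0.000276), NOP14 (-0.0733), BYSL (-0.23), PES1 (-0.16) and NOP16 (0.0157). With array weights BYSL was at -0.0255 and PES1 at -0.0216. Averaged over a gene's probe sets POLR1B was at -0.10 and NCL at -0.47 (limma adjusted p = 0.0133), and without _s_at and _x_at probe sets they were at -0.28 and -0.94 (limma adjusted p = 0.00754 for NCL), since other probe sets then stand for them. Leaving out 1 sample at a time, BYSL ranged between -0.0924 and 0.0880, NOB1 between -0.0314 and 0.139, PES1 between -0.0741 and 0.0573, NOP2 between -0.0709 and 0.238, and NCL between -0.0312 and 0.0551.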
